A study of Mus musculus with 6 samples.

Results

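The transcriptome of bone marrow-derived dendritic cells at rest was described from the 3 samples that received phosphate-buffered saline (PBS), which are 3 of the 6 samples of the series. The samples were chosen by their treatment label. These cells came from C57BL/6J mice, carry no stated allele or transgene, and were kept for 6 h with PBS, the control in a study of added lysine (18 mM in the other 3 samples, which are not compared here). RNA was sequenced, and each gene's level is given as TPM, its share of all transcripts after correction for transcript length, scaled to a total of 1000000, so levels can be compared between genes. The sources used here do not give the growth factor used to grow the cells, the day of culture, the age of the mice, or whether replicates came from separate animals or cultures. The SDs therefore describe these libraries and may hold technical variation alone.

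Dendritic cells take up antigen, digest it in endosomes and lysosomes, and show the resulting peptides to T cells on MHC molecules. Those that have met a danger signal gain the chemokine receptor Ccr7 and costimulatory ligands, which take them to the lymph node and let them activate T cells. Bone marrow grown with the cytokine GM-CSF is known to give a mixture of dendritic cells and macrophages rather than a pure dendritic cell population. RNA from bulk cultures is an average over their cells, so fewer cells of a type and less RNA per cell cannot be told apart.

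Of 21928 protein-coding genes in the table, 10578 (48.2%) reached at least 1 TPM in each of the 3 samples, which is the meaning of "detected" throughout. Their median level was 16.7 TPM, against 0.953 TPM over all protein-coding genes. A mean of at least 100 TPM was reached by 1117 genes and of at least 1000 TPM by 135, while 5947 were listed at 0 in all 3 samples. TPM keeps no sequencing depth, so the depth behind each value is unknown and a value of 0 gives no upper limit. The share of 48.2% detected is the background for every count of detected list members below. With 1 group there was no test, and differences between genes are set against the SD of the 3 samples. Where 3 values stand in a row, they are TPM in PBS replicates 1, 2 and 3, in that order.

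PBS replicate 3 stood apart from the other two. Across detected genes, the Pearson correlation of log2(TPM + 1) was 0.995 between replicates 1 and 2, and 0.990 between replicate 3 and each of them. Replicate 3 was the sample farthest from the median of the 3 in 50.6% of detected genes, against 24.7% for each of the others. Replicate 3 was above both others in 52.6% of detected genes and below both in 25.4%, so a highest value there is common. It read at least 1.5-fold higher than the mean of replicates 1 and 2 in 422 genes (3.99%) and at least 1.5-fold lower in 224 (2.12%). Counted against the mean of the other samples, replicate 1 read higher in 111 genes and lower in 247, and replicate 2 higher in 118 and lower in 235. Replicate 3 thus had the largest count of higher genes. It is part of the mean in both other counts, so genes high in it alone can count there as lower. The counts of lower genes therefore cannot be compared between samples. After scaling the 3 columns by median of ratios, chosen after seeing the data, the counts for replicate 3 were 328 higher and 290 lower. The main groups concerned are given below with their counts.

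The most abundant transcripts encoded ferritin, the iron storage protein. Fth1, its heavy chain (chromosome 19, bases 9980598 to 9985098 of GRCm38), had 42363, 42094 and 35265 TPM. Ftl1, its light chain (chromosome 7, bases 45457944 to 45459884), had 35109.8, 35251 and 29758 TPM. Together the pair made up 7.33 ± 0.715% of all TPM (SD, n = 3), and the ratio of heavy to light chain was steady at 1.2 ± 0.0108. Chil3, a secreted chitinase-like protein of macrophages also known as Ym1 (chromosome 3, bases 106147554 to 106167564), was next with 24556, 24473 and 16415 TPM. All 3 genes were lowest in replicate 3. Without that sample their means were 42229, 35181 and 24515 TPM, and their order was the same.

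Lysosomal and secreted myeloid products followed. Psap, the precursor of the saposins that help lysosomes break down sphingolipids, had 11559 ± 306 TPM (mean ± SD, n = 3 here and below). Mmp12, the macrophage elastase, had 9675 ± 416 TPM. Ctsd, an aspartic protease of the lysosome, had 8814 ± 1016 TPM, and Lyz2, the lysozyme of myeloid cells, had 8421 ± 483 TPM. These genes belong to digestion and secretion rather than to presentation. Ccl6, a chemokine of myeloid cells, had 7965, 8055 and 8019.8 TPM and varied less than any of them. The sole MHC class II gene among the 30 most abundant was Cd74, the invariant chain, with 2836, 2735 and 4141 TPM.

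The rest of the 30 were mostly genes that many cells use. They included Gapdh of glycolysis (6783 ± 43.05 TPM), the actins Actb (5856 ± 692 TPM) and Actg1 (5394 ± 519 TPM), and the actin-binding peptide Tmsb4x (6266 ± 345 TPM). Galectin-3, encoded by Lgals3, a lectin of macrophages, had 5567 ± 452 TPM. Prdx1, which reduces peroxides, had 4590.0, 4236 and 3039 TPM, and Cxcl3, a neutrophil-attracting chemokine, had 4250.4, 3864 and 2750.4 TPM. Both were lowest in replicate 3. Also among the 30 were Eef1a1, Rplp1, Rpl41, Rps12, Tpt1, B2m, Vim, Ccl17, Mt1, Gm11808 and Trim69. Trim69 (3559, 3053 and 3124 TPM) starts 7616 bases past the end of B2m on the same strand. Expression was concentrated in few genes: the top 10 protein-coding genes held 17.1 ± 1.42% of all TPM, the top 30 held 25.8 ± 1.28% and the top 100 held 40.1 ± 1.2%.

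**Figure D1:**
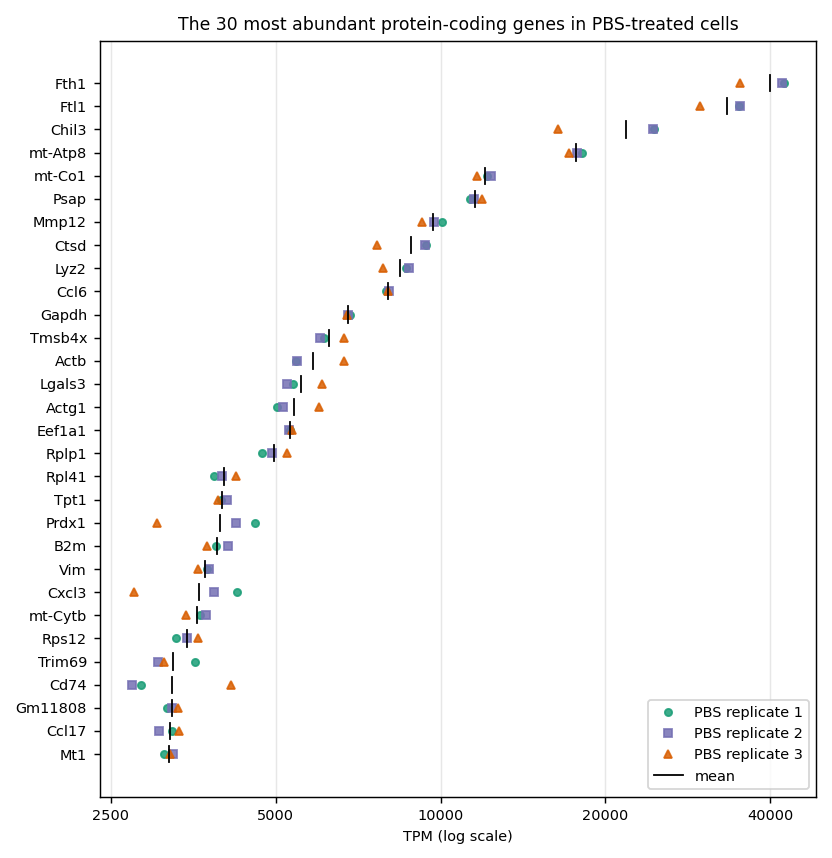
Levels of the 30 most abundant protein-coding genes in the 3 PBS samples, in TPM on a log axis, with a mark for each replicate and a bar at the mean. Fth1, Ftl1 and Chil3 lead, and for these 3 genes, Prdx1 and Cxcl3 the triangle of replicate 3 lies left of the other marks, while for Cd74 it lies right.

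Mitochondrial RNA was another abundant class. Genes of cytosolic ribosomal proteins formed a larger one, with 11.2 ± 0.501% of all TPM. All models of the mitochondrial genome together made up 4.53 ± 0.162% of TPM, led by mt-Atp8 (17685 ± 486 TPM), a subunit of ATP synthase, and mt-Co1 (12041 ± 367 TPM), the catalytic subunit of cytochrome oxidase. A further member, mt-Cytb of respiratory complex III, had 3596 ± 151 TPM. The levels and the order of mitochondrial genes, mt-Co1 included, are uncertain, since the table also holds near-identical nuclear copies. The 5 non-coding models with the highest means were all such copies on chromosome 1. Gm28661 (11591 ± 18.5 TPM) was identical to mt-Co2 over 681 bases, and mt-Co2 itself had 622, 917 and 456 TPM. Gm28437 (7482 ± 77.1 TPM) was identical to mt-Co3 over 783 bases, and mt-Co3 had 217, 76.1 and 216 TPM. In both pairs the nuclear copy carried more TPM than the mitochondrial gene. Gm10925 (4907 ± 43.7 TPM) was identical to mt-Atp6 over 678 bases, Gm10222 (5135 ± 170.0 TPM) to mt-Nd4l over 294 bases, and Gm29216 (6323 ± 361 TPM) matched mt-Co1 at 99.8% over 483 bases. The 5 copies held 3.54 ± 0.0464% of all TPM, and counted with the mitochondrial genome they would bring its share to 8.07 ± 0.208%.

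The label of the cells was set against marker lists, chosen with earlier results of these data known. Genes shared by myeloid cells were detected in 17 of 18 cases, and the median over the whole list was 694 TPM. Itgax, the CD11c chain used to recognise dendritic cells, had 358, 347 and 385 TPM. Itgam, the CD11b chain of myeloid cells, had 370.2, 386 and 429 TPM. The 2 integrin chains were close, with an Itgam to Itgax ratio of 1.09 ± 0.0458, and their ranges overlapped. Trem2, a lipid-sensing receptor of macrophages, had 745, 748 and 679 TPM, about as much as the myeloid list's median gene. Ccr7, the receptor that guides mature dendritic cells to lymph nodes, had 457, 424 and 462 TPM. All 6 marker genes, Chil3 and Cd74 included, thus had at least 347 TPM in each sample, the value of Itgax in replicate 2.

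Genes of the dendritic cell core were detected in 16 of 19 cases, but unevenly. Cst3, a cathepsin inhibitor abundant in dendritic cells, had 1947, 1882 and 1775 TPM. Of the 16 detected genes 9 read at least 1.5-fold higher in replicate 3, against 3.99% of detected genes, and 7 of these belong to class II presentation, described below. Without Cst3 the list summed to 1143, 1172 and 2319 TPM. Irf8 and Irf4, transcription factors that shape dendritic cell subsets, had 55.9, 54.2 and 68.5 TPM and 57.6, 50.4 and 53.1 TPM. Flt3, the receptor whose ligand drives dendritic cell development in vivo, had 1.58, 1.26 and 2.66 TPM, and Bcl11a, Btla and Kmo had means under 1 TPM. The list therefore ran from over 1000 TPM to under 1 TPM. Zbtb46, a factor that marks conventional dendritic cells, had 6.99, 32.9 and 9.16 TPM, so its level rests on replicate 2, without which its mean was 8.08 TPM.

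Markers of the conventional subsets were present in part. Of the cDC1 list, the subset that cross-presents antigen, 7 of 13 genes were detected, a share near the background of 48.2%. Naaa led it with 278, 269 and 272 TPM, and the factor Batf3 had 81.7, 80.3 and 127 TPM, whereas the defining chemokine receptor Xcr1 had 0.31, 0.2 and 0.37 TPM and Clec9a, a receptor for dead cells, had 5.26, 5.96 and 3.97 TPM. Of the cDC2 list 6 of 11 were detected (54.5%), also near that background. Mgl2, a galactose-binding lectin, had 792, 801 and 817 TPM and Sirpa, which binds CD47, had 251, 257 and 253 TPM, but Cd209a and Clec4a4 were at or below 0.48 TPM in each sample. For plasmacytoid cells 8 of 14 were detected (57.1%), again near the background, and the defining receptor Siglech was listed at 0 in all 3 samples.

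Genes of mature, migrating dendritic cells were fully covered. All 24 of the list were detected, with a median of 91.3 TPM and a summed level of 9951, 9192 and 9599 TPM. The chemokines Ccl17 (3231, 3054 and 3326 TPM), Ccl5 (2636, 2425 and 2359 TPM) and Ccl22 (1880.3, 1647 and 1651 TPM) led the list and were followed by Ccr7. Fscn1, which bundles actin in dendrites, had 104, 95.4 and 138 TPM. The surface proteins Cd83 (65.2, 59.8 and 64.9 TPM), Cd86 (47.1, 43.7 and 41.7 TPM), Cd40 (31.2, 25.7 and 25.1 TPM) and Cd80 (22.6, 24.1 and 22.7 TPM) were over an order of magnitude below these chemokines. None of the 24 genes read 1.5-fold higher or lower in replicate 3. Of all detected genes 3.99% read higher and 2.12% lower, so few would in a list of this size.

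Genes of macrophage lists were detected as well. All 16 genes of the lipid-associated macrophage list were detected, with a median of 878 TPM. Besides Ctsd, Lgals3 and Trem2 they included Spp1, the secreted phosphoprotein osteopontin (3134, 3017 and 2198 TPM), Gpnmb, a lysosomal glycoprotein (2469, 2402 and 2567 TPM), and the lipoprotein lipase Lpl (702, 712 and 954 TPM). Of genes typical of alveolar macrophages, which depend on GM-CSF, 19 of 24 were detected (79.2%, against 48.2% of all protein-coding genes). Chil3 made up most of that list's sum, and next to it were Mmp12, the fatty acid carrier Fabp5 (932, 931 and 944 TPM) and the lipid scavenger Cd36 (839, 839 and 781 TPM). Pparg, the nuclear receptor that directs alveolar macrophages, had 3.33, 3.61 and 5.09 TPM, Siglecf had 6.6, 5.46 and 12.1 TPM, and Marco and Ear1 had means under 1 TPM.

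Genes that IL-4 induces through STAT6 were detected in 20 of 20 cases. Besides Chil3, Ccl17 and Ccl22 they included Arg1, which splits arginine to ornithine (814, 854 and 935 TPM), Mgl2, and Retnla, a secreted resistin-like protein (81.4, 72.01 and 89.9 TPM). The mannose receptor Mrc1, another gene of this list, had 3.54, 4.27 and 5.76 TPM. The list of core tissue macrophage genes had 17 of 23 detected (73.9%, against 48.2% of all protein-coding genes). The median of all 23 was 9.53 TPM. Csf1r, the receptor for the growth factor CSF-1, had 247, 288 and 281 TPM, Msr1, a scavenger receptor, had 133, 125 and 167 TPM, and Adgre1, which encodes F4/80, had 63.95, 71.1 and 59.4 TPM. Timd4 and Vsig4 were listed at 0 in all 3 samples and Cd163 had 0.06, 0.11 and 0.1 TPM. Of core macrophage genes 6 of 17 read at least 1.5-fold higher in replicate 3, against 3.99% of detected genes. They were C1qa, C1qb, C1qc, Apoe, Cd5l and Axl. Monocyte genes were detected in 11 of 17 cases (64.7%, against 48.2% of all protein-coding genes). S100a6, a calcium-binding protein of many cells, had 651, 662 and 721 TPM and made up 50.2% of that list's sum, and the matrix protein Fn1 had 115, 117 and 135 TPM. Ly6c2, the Ly6C antigen, had 8.42, 9.9 and 19.9 TPM and Ccr2, the receptor for Ccl2, had 2.57, 3.22 and 14.2 TPM. Both were highest in replicate 3, where 4 of the 11 genes read at least 1.5-fold higher, against 3.99% of detected genes. Without that sample the mean of Ccr2 was 2.9 TPM.

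Markers of other cells differed by list. Of 22 genes of neutrophils and their precursors 9 were detected (40.9%, near the background of 48.2%). Those were led by Mmp8 (249, 252 and 298 TPM), Lcn2 (92.4, 94.3 and 202 TPM) and S100a8 (98.5, 108 and 69.1 TPM), while the granule genes Elane and Ngp were listed at 0, and S100a9, the partner of S100a8, had 0.9, 0.97 and 2.48 TPM. For B cells 2 of 12 genes were detected, for the erythroid list 1 of 10, for stroma and endothelium 1 of 13, and for mast cells and basophils 2 of 12, all far below the background share. The summed TPM of the B cell list was 7.15, 7.8 and 16.6. Of the platelet list, the chemokines Pf4 (489, 499 and 419.8 TPM) and Ppbp (211, 219 and 239.8 TPM) and the adhesion protein Vwf (58.6, 63.8 and 51.9 TPM) were above 50 TPM, whereas the defining platelet genes Gp1ba, Gp5, Gp9 and Gp6 had means under 1 TPM. Of the osteoclast list, much of which macrophages share, 8 of 10 genes were detected at a median of 13.9 TPM over the list, led by Atp6v0d2, a subunit of the proton pump (228, 242 and 213 TPM), and Dcstamp, a cell fusion protein (106, 103 and 166 TPM). Of the stem and progenitor list 5 of 9 were detected (55.6%), near the background share. Procr, the protein C receptor, had 170.3, 138 and 98.5 TPM and Cd34 had 2.5, 2.24 and 1.79 TPM.

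T and NK cell genes were present at low levels, and differed between samples. Of the 16 listed genes 10 were detected (62.5%, against 48.2% of all protein-coding genes). The highest, Il7r, which dendritic cells can also express as part of the TSLP receptor, had 162, 160.4 and 136 TPM. Without it the list summed to 53.2, 52.4 and 135 TPM. The 3 chains of the CD3 complex, the signalling part of the T cell receptor, summed to 5.84, 4.21 and 15.8 TPM. Gzma and Gzmb, granule proteases of cytotoxic cells, had 17.03, 14.6 and 32.7 TPM and 11.9, 13.5 and 30.2 TPM, and Thy1 had 6.96, 8.42 and 22.8 TPM, or 7.69 TPM on average without replicate 3. Replicate 3 was thus highest for all of these but Il7r, and 9 of the 10 detected genes read at least 1.5-fold higher in it, against 3.99% of detected genes.

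**Figure D2:**
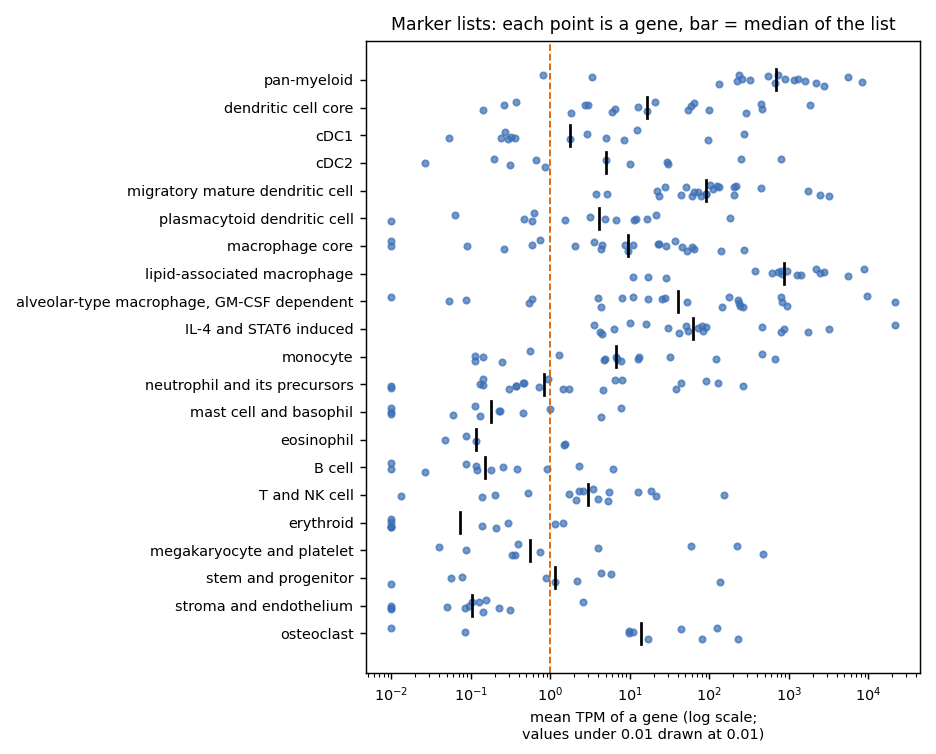
Mean TPM over the 3 PBS samples on a log axis for each gene of the marker lists, with a black bar at each list's median and a dashed line at 1 TPM. The lists for pan-myeloid, migratory mature dendritic, lipid-associated and IL-4 induced genes lie almost wholly right of the line, while most genes of the B cell, erythroid, mast cell and stromal lists lie left of it.

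Genes of antigen presentation on MHC class I were all detected (22 of 22), and their sum, carried by the chains of the molecule itself, was 12298, 12469.9 and 12759 TPM. B2m, the common light chain, had 3908 ± 170.5 TPM, and the heavy chains H2-K1 and H2-D1 had 2639 ± 73.2 and 2295 ± 65.5 TPM. Tap1 and Tap2, which pump peptides into the endoplasmic reticulum, had 65.4, 56.4 and 84.5 TPM and 71.6, 65.2 and 89.9 TPM. The immunoproteasome subunits Psmb8 (299.6, 288 and 374 TPM) and Psmb9 (56.9, 59.2 and 96.2 TPM) were highest in replicate 3. So were 16 of the 22 genes, against 52.6% of all detected genes. In replicate 3 Psmb9, H2-Q7 and Nlrc5, the coactivator of class I genes, read at least 1.5-fold higher, 3 of 22 against 3.99% of detected genes.

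Class II presentation differed between samples. Replicates 1 and 2 were close to each other, and replicate 3 read higher than both for every chain. H2-Ab1, a beta chain (chromosome 17, bases 34257689 to 34269419), had 319, 338 and 741 TPM. H2-Aa, an alpha chain (chromosome 17, bases 34282744 to 34287823), had 313, 301 and 707 TPM. H2-Eb1, another beta chain (chromosome 17, bases 34305867 to 34316674), had 212, 216 and 445 TPM. The alpha and beta chains kept their proportions: the H2-Aa to H2-Ab1 ratio was 0.942 ± 0.0442 and the H2-Eb1 to H2-Ab1 ratio was 0.634 ± 0.0311. Cd74 did not keep pace, with a ratio to H2-Ab1 of 8.88, 8.1 and 5.59. Together the 3 alpha and beta chains summed to 844, 854 and 1894 TPM.

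The peptide loaders of class II and Ciita were also highest in replicate 3, while Rfx5 and Ctss were not. H2-DMa and H2-DMb1, which load peptides, had 80.2, 86.9 and 134 TPM and 45.9, 47.7 and 96.4 TPM. Ciita, the coactivator that switches on class II genes, had 4.98, 5.21 and 9.05 TPM. Rfx5, a DNA-binding partner of Ciita, had 10.4, 9.05 and 8.35 TPM, and Ctss, the protease that trims the invariant chain, had 2812, 2792 and 2607 TPM, with replicate 3 lowest for both. Of the 15 detected genes of the list 7 read at least 1.5-fold higher in replicate 3 (3.99% of detected genes did) and none lower (2.12%). Replicate 3 also had the highest summed TPM of the T and NK cell list and of the B cell list (7.15, 7.8 and 16.6 TPM for the latter). The part of any cell type in the class II levels was not tested. March1, which marks class II for breakdown, had 38.4, 38.5 and 31.7 TPM. Without replicate 3 the means were 328 TPM for H2-Ab1, 307 TPM for H2-Aa and 2785 TPM for Cd74.

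Since the class II chains moved together between samples, the promoters of H2-Aa and H2-Eb1 are shown, together with that of Chil3, the most abundant lineage product. They are RefSeq windows of GRCm38.p6 running from 250 bases before to 50 bases after the annotated start, printed 5′ to 3′ on the gene's strand. Class II promoters are known to carry an X box and a Y box, bound by the factors that recruit Ciita. Capitals mark matches on either strand to the Y box letters CTGATTGG, the X box letters CAACNGATG and the TATA box letters TATAAA, none of which overlap here.
H2-Aa (chr17:34287774-34288073, minus strand): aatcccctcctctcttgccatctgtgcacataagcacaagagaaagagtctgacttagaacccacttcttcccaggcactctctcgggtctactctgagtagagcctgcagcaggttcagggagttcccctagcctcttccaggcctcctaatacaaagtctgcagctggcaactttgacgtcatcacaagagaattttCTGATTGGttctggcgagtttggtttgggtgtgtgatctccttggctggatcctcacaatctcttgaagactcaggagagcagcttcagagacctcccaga
H2-Eb1 (chr17:34305617-34305916, plus strand): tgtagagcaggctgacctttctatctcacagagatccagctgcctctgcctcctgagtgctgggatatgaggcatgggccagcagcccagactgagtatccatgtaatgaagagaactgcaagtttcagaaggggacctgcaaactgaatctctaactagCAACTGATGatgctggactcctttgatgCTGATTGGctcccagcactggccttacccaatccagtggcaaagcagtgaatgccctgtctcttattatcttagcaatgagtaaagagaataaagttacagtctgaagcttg
Chil3 (chr3:106167515-106167814, minus strand): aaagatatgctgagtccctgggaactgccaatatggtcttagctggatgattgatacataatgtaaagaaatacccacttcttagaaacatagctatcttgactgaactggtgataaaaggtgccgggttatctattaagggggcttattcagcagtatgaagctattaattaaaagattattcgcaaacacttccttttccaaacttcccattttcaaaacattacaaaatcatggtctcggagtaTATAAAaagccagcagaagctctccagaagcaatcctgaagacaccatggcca

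The Y box letters start at base 200 of the H2-Aa window and at base 189 of the H2-Eb1 window. The same letters were found in 4.1% of all 32851 windows. The X box letters were found at base 161 in H2-Eb1, upstream of its Y box, and in 0.566% of all windows. H2-Aa does not hold these X box letters in this window. Neither the X box nor the Y box letters were found in the windows of H2-DMa and H2-DMb1, and H2-Ab1 had no window. The search took these letters alone, so it cannot show that a box in a variant form is absent, in H2-Aa or elsewhere. A window of Fth1 held the Y box letters at base 241. The Chil3 window holds TATAAA at base 248 in the numbering from its upstream end, close to the annotated start, and 13.6% of all windows hold these letters. Of the 100 most abundant nuclear protein-coding genes 74 had a window, and 18 of these (24.3%) held TATAAA, against 15.7% of all 27025 genes with a window. The Y box letters were held by 8 of the 74 (10.8%), against 4.7% of all genes with a window. Those 27025 genes outnumber the 21928 protein-coding genes described here, so this background may differ in kind from the top genes. A match describes letters, not binding.

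Among growth factor and cytokine receptors, those for GM-CSF led. Csf2rb, the signalling beta chain, had 1138, 1141 and 1166 TPM. Csf2ra, the chain that binds GM-CSF, had 965, 983 and 1088 TPM. The ratio of Csf2rb to Csf1r was 4.24 ± 0.335 and that of Csf2ra to Csf1r was 3.73 ± 0.275, and each sample had this order. In all, 36 of 40 listed receptors were detected. Csf2rb2, the IL-3 specific beta chain of mice, had 377 ± 17.5 TPM. Tnfrsf1b (169 ± 17.04 TPM), Crlf2 (168 ± 9.37 TPM), Il2rg (158 ± 10.5 TPM) and Il7r (153 ± 14.5 TPM) came next, and neighbours in that order overlapped. Crlf2, together with Il7r, forms the receptor for TSLP. Il4ra had 71.5 ± 4.76 TPM, the interferon receptors Ifnar1 and Ifngr1 had 47.3 ± 2.4 and 51.9 ± 1.58 TPM, and Csf3r, the G-CSF receptor of neutrophils, had 1.72 ± 0.341 TPM. The GM-CSF cytokine gene itself, Csf2, had 2.81, 3.93 and 4.26 TPM.

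C-type lectins, which bind sugars of microbes and of self, were detected in 18 of 29 cases, not far above the background share, but a few were very high. Clec4n, which encodes Dectin-2, had 3148, 3085 and 2895 TPM and carried 54.2% of the list's summed TPM. It was followed by Mgl2, by Clec7a, the beta-glucan receptor Dectin-1 (687, 685 and 576 TPM), and by Clec4d (402, 389 and 285 TPM). The ranges of these 4 genes did not overlap each other. Clec4e, which encodes Mincle, had 191, 167 and 126 TPM, and its range overlapped those of Clec4a2 and Clec5a. Clec7a, Clec4d and Clec4e were lowest in replicate 3, and Clec4a2 (177, 212 and 264 TPM) was highest there.

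Of 12 Toll-like receptors 9 were detected (75%, against 48.2% of all protein-coding genes). Tlr2, which senses bacterial lipoproteins, had 124, 108 and 85.6 TPM. Tlr13, which senses bacterial ribosomal RNA in mice, had 56.5, 60.2 and 56.7 TPM, and Tlr4, the receptor for lipopolysaccharide, had 36.6, 37.8 and 35.5 TPM. These 3 were separated from each other and from the next ones by more than their ranges. Tlr6 (21.6 ± 3.6 TPM), Tlr7 (21.4 ± 2.47 TPM) and Tlr8 (19.6 ± 3.07 TPM) overlapped. Tlr9 had 4.93 ± 1.12 TPM and Tlr3, the sensor of double-stranded RNA, 1.76 ± 0.219 TPM, while Tlr5, the flagellin receptor, had 0.03, 0 and 0.02 TPM. Among their partners, Cd14, the coreceptor of Tlr4, had 354, 320.3 and 289 TPM and Unc93b1, which carries nucleic acid sensors to endosomes, had 299, 316 and 388 TPM. Both exceeded every Toll-like receptor in each sample. All 20 cytosolic sensor genes were detected, with Pycard, the inflammasome adaptor (129.5, 137 and 180.3 TPM), at the top, then Casp1 (66.3 ± 2.82 TPM), Naip2 (60.7 ± 8.79 TPM), Aim2 (55.5 ± 4.23 TPM) and Nlrp3 (46.8 ± 4.61 TPM).

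**Figure D3:**
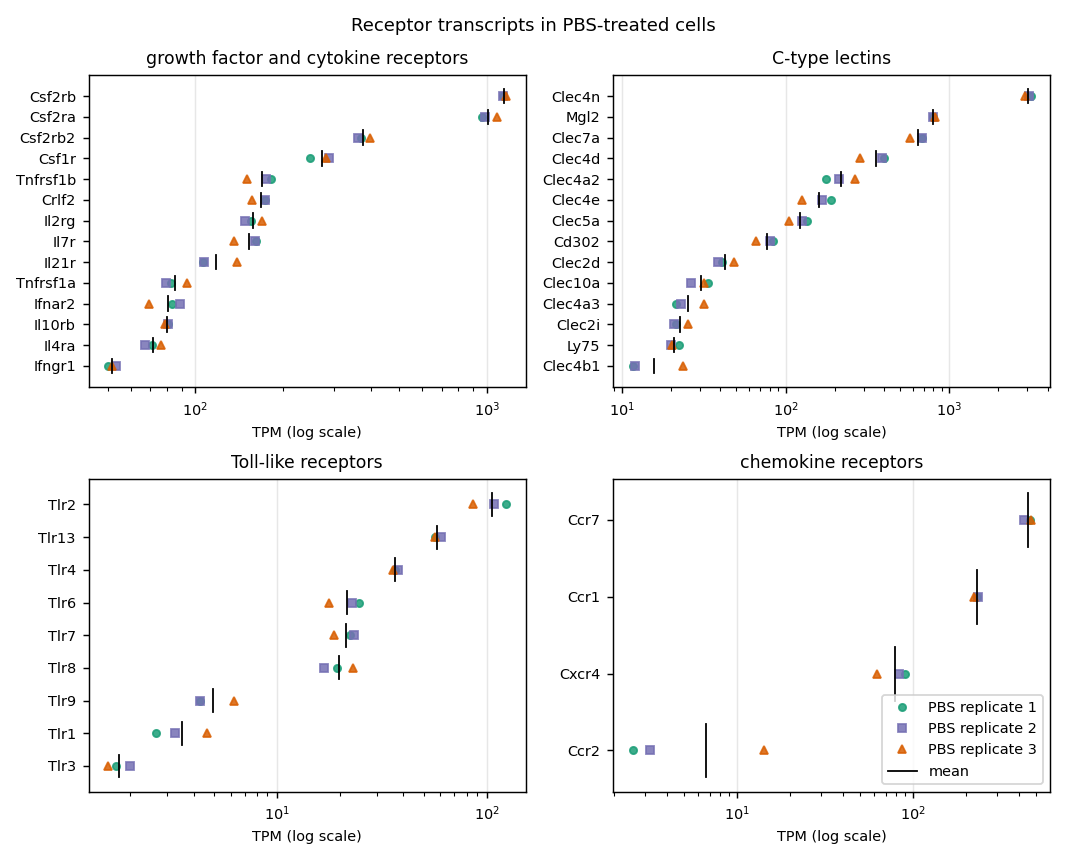
TPM in each PBS sample on log axes for members of 4 receptor lists, with a bar at the mean. Csf2rb and Csf2ra lie right of Csf1r, Clec4n stands alone among the lectins, Tlr2, Tlr13 and Tlr4 head the Toll-like receptors, and Ccr2 shows the widest gap between replicate 3 and the others.

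For antibody, the activating chain Fcgr3 (806, 814 and 733 TPM) exceeded the inhibitory Fcgr2b (146, 137 and 101 TPM) with a ratio of 6.25 ± 0.917, and Fcer1g, the signalling subunit of the activating receptors, had 1149 ± 20.4 TPM. Fcgr1, the high-affinity receptor, had 22.8 ± 2.9 TPM. Among chemokine receptors only 7 of 23 were detected, a share below the background. Ccr7 led, followed by Ccr1 (231, 233 and 222 TPM), a receptor for inflammatory chemokines, and Cxcr4 (89.8, 83.5 and 62.1 TPM), which holds cells in bone marrow. The ranges of these 3 did not overlap. Xcr1, Cx3cr1, Cxcr3 and Ccr6 were each below 1 TPM in every sample.

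Integrins and inhibitory receptors completed the surface. Itgb2, the beta chain that pairs with Itgam and Itgax, had 862, 850.3 and 1011 TPM. Itgb7 had 63.3, 58.4 and 127 TPM and was highest in replicate 3. Of 30 paired and inhibitory receptors 26 were detected. Lilrb4a, an inhibitory immunoglobulin-like receptor, had 967, 956 and 1049.6 TPM, its neighbour in the family Lilr4b had 843, 810.2 and 853 TPM, and Cd200r1, which receives an inhibitory signal from CD200, had 171, 175 and 177 TPM. These were as high as Trem2 or within an order of magnitude of it. Among 19 detected costimulators and checkpoint ligands, Cd274, which encodes PD-L1, was highest at 206, 205 and 197 TPM, and Pdcd1lg2, which encodes PD-L2, had 50.5, 45.9 and 55.9 TPM. Cd274 thus exceeded the activating ligands Cd80 and Cd86 in each sample. Of receptors for inflammatory mediators, Fpr2 for formyl peptides had 130.5 ± 20.7 TPM, Ptafr for platelet-activating factor 94.1 ± 4.3 TPM and C5ar1 for complement C5a 94.3 ± 11.4 TPM.

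Transcription factors of the myeloid lineage were detected in 44 of 47 cases. Id2, an inhibitor of E proteins that dendritic cells need, had 579, 582 and 632 TPM. Spi1, which encodes PU.1, the master regulator of myeloid cells, had 239, 238 and 286 TPM, and Bhlhe40, a helix-loop-helix repressor, had 232, 231 and 267 TPM. The ranges of Spi1 and Bhlhe40 overlapped, and both lay below Id2. Of the 44, 5 read at least 1.5-fold higher in replicate 3 (Batf3, Irf1, Id1, Id3 and Fli1), against 3.99% of detected genes. Irf5 (168, 167 and 216 TPM) and Cebpb (102, 118 and 103 TPM) came next. Of macrophage factors, Tfec had 48.7, 51.1 and 49.5 TPM and Maf 3.21, 3.5 and 3.87 TPM. Both were below Cebpb, as were Irf8 and Irf4, the factors of dendritic cell subsets given earlier. Of nuclear receptors, Nr1h2, an oxysterol receptor, was highest at 100.4, 88.6 and 101 TPM. Its relative Nr1h3 had 3.59, 2.08 and 4.03 TPM, Vdr had 29.03, 25.5 and 37.2 TPM and Ppara was listed at 0 in all 3 samples. All 25 AP-1, NF-kB, STAT and stress factors were detected, with Nfe2l2, the factor of the antioxidant response, at 224, 224 and 217 TPM, Junb at 217, 207 and 244 TPM and Atf3 at 207, 208 and 253 TPM.

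Secreted products made up a large share of the RNA. Chemokines summed to 2.4 ± 0.0912% of all TPM over 35 listed genes, of which 22 were detected and 14 had a mean of at least 100 TPM. Apart from Ccl6, Cxcl3, Ccl17, Ccl5 and Ccl22, the highest were Ccl9 (1523, 1391 and 1503 TPM) and Ccl2 (713, 748 and 976 TPM), which draw monocytes and other myeloid cells. Cxcl3 overlapped in range with Ccl17. Interferon-induced Cxcl10 had 13.1, 12.2 and 25.4 TPM. Of 37 cytokines 27 were detected. After Spp1, which made up 53.2% of their summed TPM, came Mif (612 ± 28.3 TPM) and Il1rn, the antagonist of the IL-1 receptor (457 ± 36.9 TPM). The inflammatory cytokines were lower: Il1a had 205, 179 and 141 TPM, Tnf 151, 132 and 139.5 TPM, Il1b 99.4, 82.6 and 85.3 TPM and Il6 19.2, 15.8 and 16.7 TPM. Il12b, the common chain of IL-12 and IL-23, had 5.67, 4.74 and 4.96 TPM. The antagonist Il1rn exceeded Il1a and Il1b in every sample.

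Proteases of the lysosome were a further large class. Cathepsins and legumain summed to 20158, 19988 and 17864 TPM, or 1.93 ± 0.128% of all TPM, and 14 of 15 were detected. After Ctsd came Ctss, Ctsz (2315 ± 26.6 TPM), Ctsb (2226 ± 178 TPM) and Ctsl (1419 ± 83.9 TPM). Ctsz and Ctsb overlapped. Ctsk, prominent in osteoclasts, had 16.8 ± 1.71 TPM. The inhibitors Cst3 and Cstb had 1868 ± 87 and 1756 ± 60.4 TPM. Outside the cell, Mmp12 carried 85.1% of the summed TPM of its list, and the tissue inhibitor Timp1 had 60.5 ± 1.5 TPM. All 9 genes of the oxidative burst list were above 100 TPM on average, led by Cyba, the membrane subunit of the NADPH oxidase (2175 ± 72.4 TPM), whereas its catalytic partner Cybb had 222 ± 4.82 TPM. Properdin, encoded by Cfp, which stabilises the complement convertase, had 525 ± 33.96 TPM, and C3 had 152 ± 8.84 TPM. C1qb (40.1, 36.5 and 81.4 TPM) was highest in replicate 3.

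Among metabolic classes, iron and haem genes held 7.88 ± 0.75% of all TPM, nearly all of it ferritin. Hmox1, the inducible haem oxygenase, had 2357, 2289 and 2318 TPM and exceeded the constitutive Hmox2 with a ratio of 36.6 ± 1.39. Alas1, the first enzyme of haem synthesis, had 2356, 2208 and 1763 TPM. Tfrc, the receptor that takes up transferrin iron, had 15.3, 16.99 and 15.04 TPM, and Slc40a1, the iron exporter ferroportin, had 12.5, 11.6 and 11.4 TPM. RNA for storage and haem turnover thus exceeded that for uptake and export by more than the spread in each sample. Slc11a1, an iron transporter of phagosomes, had 132, 148 and 70.7 TPM and was lowest in replicate 3.

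Glycolysis had 26 of 27 genes detected and summed to 15626, 15552 and 15315 TPM, which is 1.55 ± 0.0162% of all TPM. After Gapdh came Aldoa (2133 ± 45.8 TPM), for which the table holds another model under the same symbol, Pkm (1392 ± 31.1 TPM) and Eno1 (1223 ± 28.2 TPM). Ldha, the lactate-forming subunit, exceeded Ldhb with a ratio of 139 ± 32.4. The lactate exporter Slc16a3 had 223, 219 and 188 TPM and the glucose transporter Slc2a1 169, 163 and 149 TPM. Of the hexokinases Hk3 was highest at 129.9, 129.7 and 161 TPM, above Hk2 at 69.7, 68.6 and 65.1 TPM and Hk1 at 39.7, 40.6 and 44.01 TPM. No detected glycolysis gene differed 1.5-fold in replicate 3. With 3.99% of all detected genes higher and 2.12% lower, few would in a list of this size.

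The pentose phosphate pathway, which makes NADPH, summed to 2239.7, 2263 and 2189 TPM, with Pgd at 940.0 ± 46.8 TPM and G6pdx at 146 ± 12.5 TPM. The tricarboxylic acid cycle list summed to 2811, 2756 and 2794 TPM with all 28 genes detected. Acod1, which makes itaconate from a cycle intermediate, was its highest member at 839.6, 741 and 579 TPM, and held 25.8% of the sum. Next were Mdh2, the mitochondrial malate dehydrogenase (317 ± 25.1 TPM), and Idh1, the cytosolic isocitrate dehydrogenase (206 ± 11.8 TPM), while the mitochondrial Idh2 had 28.6 ± 1.59 TPM. Nuclear genes of oxidative phosphorylation were detected in 79 of 80 cases and summed to 1.76 ± 0.0943% of all TPM, led by Atp5b (1132 ± 110.0 TPM).

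Lipid genes were led by uptake and storage. Besides Fabp5, Cd36 and Lpl, Plin2, the coat protein of lipid droplets, had 583, 596 and 654 TPM, and Lipa, the lysosomal lipase, had 373, 374 and 384 TPM. Efflux genes were lower: Abcg1 had 30.04, 26.9 and 26.99 TPM, Abca1 27.9, 28.8 and 15.99 TPM and Apoe 22.98, 24.1 and 37.9 TPM. Fatty acid oxidation summed to 1103, 1114 and 1178 TPM and fatty acid synthesis to 490.4, 484 and 575 TPM. Cholesterol synthesis summed to 498, 498 and 704 TPM, and 9 of its 24 detected genes read at least 1.5-fold higher in replicate 3, against 3.99% of detected genes. Fdps, which makes farnesyl diphosphate, had 38.8, 36.4 and 60.2 TPM and was highest in replicate 3.

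Antioxidant genes summed to 12867, 12460.0 and 10633 TPM. Of 26 genes 25 were detected and 19 had a mean of at least 100 TPM. After Prdx1, Gpx1, a glutathione peroxidase, had 1592, 1618 and 1784 TPM, and Slc7a11, which imports cystine for glutathione synthesis, had 153, 153 and 118 TPM. The catalytic and the regulatory subunit of glutamate-cysteine ligase, Gclc and Gclm, had 55.7, 49.7 and 28.5 TPM and 327, 302 and 237 TPM. Both were lowest in replicate 3, as were Srxn1 (402, 382 and 284 TPM) and Gsta3 (9.58, 9.5 and 2.77 TPM). Gclc and Gsta3 read at least 1.5-fold lower there, 2 of 25 against 2.12% of detected genes.

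In amino acid metabolism, Arg1 exceeded Nos2, the inducible nitric oxide synthase that competes for arginine (187, 171 and 148 TPM), with a ratio of 5.22 ± 0.992. Ass1, which remakes arginine from citrulline, had 532, 494 and 445 TPM. Il4i1, which oxidises aromatic amino acids, had 136, 113 and 152 TPM, while Ido1, which degrades tryptophan, had 0.73, 0.99 and 1.05 TPM. The ratio of Slc7a2, an inducible importer of arginine and lysine (199, 189 and 134 TPM), to the widespread Slc7a1 (5.72, 6.04 and 6.52 TPM) was 28.9 ± 7.43, and without replicate 3 the Slc7a2 mean was 194 TPM. Slc3a2, the heavy chain of several exchangers, had 453, 419 and 406 TPM, whereas Slc7a5, a light chain that pairs with it, had 3.75, 3.52 and 3.98 TPM. For degradation of lysine, the amino acid that the study added to the other samples, 3 of 8 genes were detected. That is 37.5%, not far from the 48.2% of all protein-coding genes for so short a list. Gcdh had 8.08, 9.34 and 9.31 TPM, Aldh7a1 8.72, 9.15 and 8.23 TPM and Phykpl 8.24, 7.32 and 5.86 TPM, and Aass, the entry enzyme of the saccharopine route, was listed at 0 in all 3 samples.

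**Figure D4:**
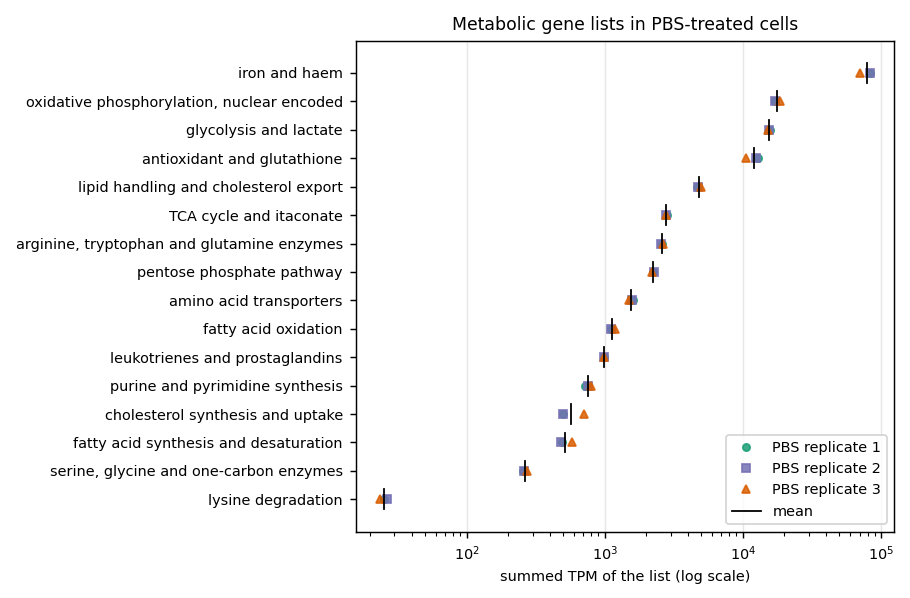
Summed TPM of each metabolic gene list in the 3 PBS samples on a log axis, with a bar at the mean. Iron and haem genes lead, lysine degradation genes are lowest at 25.3, 26.4 and 23.6 TPM, and cholesterol synthesis shows replicate 3 right of the others.

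Proliferation genes were low. Mki67, a marker of cycling cells, had 8.04, 7.33 and 6.27 TPM and Top2a had 4.61, 5.82 and 9.66 TPM, while the cell cycle inhibitor Cdkn1a had 427, 421 and 454 TPM and made up 52.4% of its list. Of 23 detected cell cycle genes 9 read at least 1.5-fold higher in replicate 3, against 3.99% of all detected genes, among them Mcm5 (7.09, 9.72 and 14.8 TPM). Of interferon-stimulated genes 29 of 30 were detected, and the median over the whole list was 24.4 TPM. Ifitm3, which blocks viral entry, had 464, 487 and 601 TPM, and Isg15 had 44.7, 36.3 and 41.1 TPM. Of stress and immediate early genes, all 18 were detected, with Fos at 34.02, 37.4 and 48.7 TPM and Hspa1a at 27.7, 27.01 and 23.6 TPM.

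The spread between samples shrank with the level of a gene. The median coefficient of variation over detected genes was 8.31%. It was 15.3% for genes with a mean of 1 to 5 TPM, 8.14% from 5 to 50 TPM, 5.6% from 50 to 500 TPM and 4.93% above. The 10 protein-coding genes with the largest coefficients, among those with a mean of at least 5 TPM, were mostly highest in replicate 3. They were Slco1a6, an organic anion transporter (0, 0 and 16.3 TPM), Ccr2, Gzmc, a granzyme (6.89, 6.08 and 27.6 TPM), Cnbd2 (4.05, 4.72 and 18.2 TPM), Ly6a, the stem cell antigen Sca-1 (3.8, 2.44 and 11.1 TPM), Plac8 (3.13, 4.38 and 13.1 TPM), Enah, Zbtb46, Gm17655 and a model of Ddit3. Without replicate 3 the means of Ly6a and Plac8 were 3.12 and 3.75 TPM. Enah, an actin regulator (3.48, 24.6 and 6.22 TPM), and Zbtb46 were highest in replicate 2, and Gm17655 (10.2, 2.81 and 2.38 TPM) in replicate 1. The Ddit3 model, 1 of 2 in the table that overlap over 2925 bases, had 0, 283 and 362 TPM, and the level of that gene is uncertain.

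**Figure D5:**
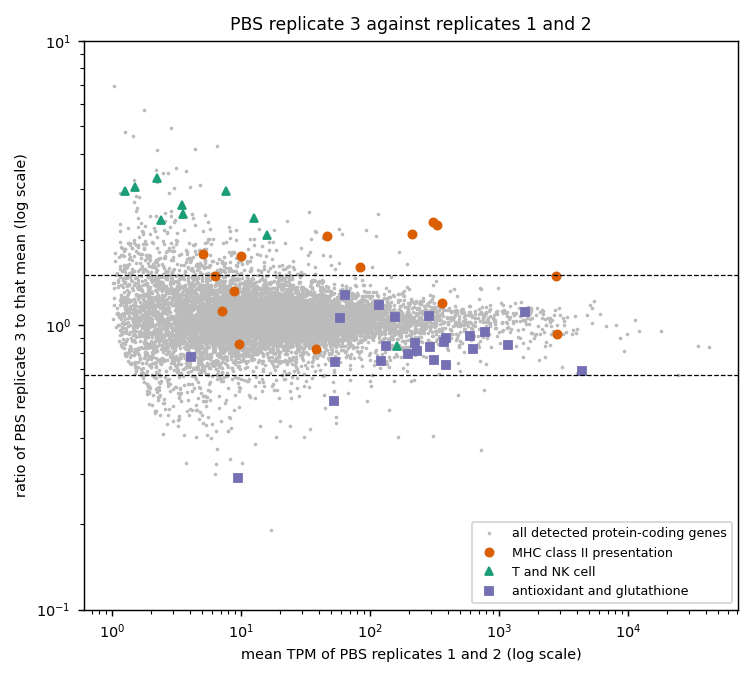
Ratio of PBS replicate 3 to the mean of replicates 1 and 2, against that mean in TPM, for all 10578 detected protein-coding genes in grey and for 3 lists in colour, with both axes on a log scale. Dashed lines mark 1.5-fold differences. The class II chains and 9 T and NK cell genes lie above the upper line, and 2 antioxidant genes lie below the lower line.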

How the data were processed

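The authors deposited a table of TPM (a length-corrected share of transcripts, summing to 1000000 in each sample) covering 55740 gene models, and the 3 PBS columns were matched by their sample titles. Per the submitters' processing notes, HISAT2, StringTie, RSEM and edgeR and the build GRCm38.p6 were used, and the design text of the series names RSEM for abundance. The sources used here do not give roles, versions, annotation release, strand or depth. Gene classes and positions came from GENCODE M21 of GRCm38, which held 93.5% of the identifiers. The design has 1 group here, so no test was run.

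Levels were averaged over the samples with pandas 2.3.3 and numpy 2.4.6, on Python 3.11.15. A gene was called detected at 1 TPM or more in each sample. For 70 gene lists (1327 genes, with 3 listed members not matched), detected members and summed TPM were counted. The genes named were the 30 most abundant, members of the lists, the 10 with the largest coefficient of variation at a mean of 5 TPM or more, and the 5 most abundant non-coding models. Lists and members were chosen with earlier results of these data known. List members with the same symbol were represented by the model with the higher mean. In lists built from a symbol pattern, the model with the first identifier was kept instead. Nuclear copies of mitochondrial genes were aligned with blastn 2.17.0. The scripts were tested on simulated data. Some members of the lists are counted but not reported here by name.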

Additional observations from a re-analysis of the deposited data

How the results depend on the processing

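The number of detected protein-coding genes was 11218 at 0.5 TPM, 8319 at 5 TPM and 13670 for any value above 0, and 10660 to 10689 when 1 replicate was left out. Of the 30 most abundant genes 29 were shared by median, and 29 to 30 when 1 replicate was left out. The median coefficient of variation of 8.31% was 7.4% at a mean of at least 5 TPM and 7.81% after median-of-ratios scaling. As an SD of log2(TPM + 1), a different scale, it was 0.109. At a fold of 2, chosen after seeing the data, 97 genes were higher and 51 lower in PBS replicate 3. Rescaling to nuclear protein-coding genes multiplied every level by 1.15 to 1.16 and moved 796 of 1100 gene means by more than their SD. Median-of-ratios scaling moved the replicate 3 ratio of 12 of 70 lists across 1. At 5 TPM the detected members of 10 of 70 lists were over 1.5 times fewer. No paired analysis was possible because the result comes from no test. Depth is unknown, so the counting error of low values and zeros cannot be given. Nothing here separates the animals or cultures behind the samples.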
